A study of Mus musculus with 37 samples.

Results

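The cytosolic ribosomal proteins are the protein subunits of the ribosome that translates nuclear-encoded messages. Their genes were taken from the gene tables by symbol: Rplp0 to Rplp2, Rpsa, and every symbol that starts with Rpl or Rps followed by a digit. Genes of the Rps6k kinases, symbols marked as pseudogenes with "-ps" and Rpl10l were left out, which removed 18 matching rows. This left 87 of the 24318 genes listed at each stage. At E11.5 all 87 had a mean of at least 1 RPKM, a read value scaled to transcript length and to the mapped reads of the library. At E10.5 86 did, of 11584 genes at that level, and at E11.5 the 87 stood among 12667 such genes. The gene at the edge was Rpl3l, with a mean of 1.18 RPKM at E11.5 and 0.0223 RPKM at E10.5, and the next lowest were Rpl7l1 at E11.5 (19.6 RPKM) and Rps27rt at E10.5 (5.89 RPKM). By symbol, 52 of the 87 belong to the large subunit and 35 to the small subunit.

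The RNA came from mouse primordial germ cells, the embryonic precursors of eggs and sperm, sorted by a green fluorescent reporter inserted at Oct4 (Oct4-IRES-Gfp). All embryos came from one kind of cross, in which the mothers carried the reporter and were homozygous for the conditional Dnmt1 2lox allele and the fathers carried Blimp1-Cre. The knockout libraries, named DCKO in the titles, are labelled Dnmt1 -/- and the controls wild type. By this cross each embryo, controls included, received a conditional Dnmt1 allele from its mother, and sorting required the reporter. Whether each control embryo carried Cre, and which Dnmt1 allele came from its father, is not given in the sources used here. Dnmt1 copies DNA methylation to the new strand after replication, and Blimp1-Cre acts in the germ cell lineage but is not restricted to it. At E10.5 there were 2 female and 1 male DCKO and 2 female and 2 male control libraries. At E11.5 there were 6 female and 4 male DCKO and 4 female and 4 male control libraries. Polyadenylated RNA was amplified before the libraries were built. Nothing in the labels ties each library to its own embryo, so the p-values measure the spread between these libraries, which may be technical in part.

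Each ribosome holds 1 copy of most of these proteins, and their messages are among the most abundant in any growing cell. Most of the messages begin with a run of pyrimidines, the 5′ terminal oligopyrimidine (TOP) motif, through which their translation follows mTOR signalling. A cell that makes too little of 1 subunit protein has unused ribosomal parts, and the complex of Rpl5 and Rpl11 with 5S RNA can then bind Mdm2 and stabilise p53. Several subunits have a second gene copy that is used in particular tissues, often in the germ line, and many processed pseudogenes resemble the main copies closely.

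Dnmt1, the deleted gene, had 13.0 to 59.4 RPKM in DCKO at E11.5, against 72.9 to 296 RPKM in controls. At E10.5 its RPKM was 14.9 to 29.6 in DCKO and 74.1 to 107 in controls. The groups did not overlap at either stage. All 14 markers of primordial germ cells were above 0 in every E10.5 library, and 13 of 14 in every E11.5 library. At E11.5 3 libraries had higher summed markers of other cells than the rest. Summed over 40 markers of gonadal somatic cells, mesenchyme, endothelium and macrophages, male control 3 had 978 RPKM, male DCKO 1 had 675 and female DCKO 4 had 588, and the other 15 libraries had between 41.5 and 262. Pecam1, an endothelial marker in the sum, alone had 21.2 to 158 RPKM, so low sums can be mostly Pecam1. At E10.5 the lowest endothelial sum was 45.2 RPKM and the lowest Pecam1 value 43.1. The part of germ cells in Pecam1 was not tested. In male control 3 only 1 of those 40 markers was listed at 0. The 9 macrophage markers among them, taken alone, were highest in male control 2, at 44.5 RPKM. The 8 erythroid markers are not in that sum. Their mean log2(RPKM + 1) was 4.56 in male control 3, 4.30 in female DCKO 6, 3.89 in female DCKO 4 and 2.56 in female control 4, against at most 0.89 in the other 14, and all 8 were listed at 0 in male DCKO 1. The germ cell markers had a mean log2(RPKM + 1) of 3.72 in male control 3, 5.49 in male DCKO 1 and 5.37 in female DCKO 4. It was 6.04 to 7.09 in the other 15 libraries. The number of reads per library is unknown, since the RPKM values show no steps of whole reads.

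At E11.5 the 87 genes together held 21.1% ± 3.29 (SD, n = 18) of all deposited RPKM, and at E10.5 the 86 genes held 23.7% ± 3.61 (SD, n = 7). Mean levels spanned 8084-fold at E11.5, from Rpl3l to Rpl41. The 4 highest genes were the same at both stages and in the same order: Rpl41, Rpl38, Rps27 and Rps28. At E11.5 Rpl41, the smallest subunit protein, averaged 9559 RPKM, Rpl38 6548, Rps27 5879 and Rps28 4967. At E10.5 Rpl41 averaged 13208 RPKM. The lowest 5 at E11.5 were Rpl3l, Rpl7l1, Rps19bp1 (24.2 RPKM), Rpl37rt (29.8) and Rpl30 (43.1). At E10.5 they were Rps27rt, Rps19bp1 (19.9 RPKM), Rpl37rt (32.2), Rpl7l1 (34.6) and Rpl30 (48.4). Rpl30 encodes a subunit of every ribosome, and the part of reads shared with processed pseudogenes in its low value was not tested. Some pseudogene rows held high values themselves. Rpl34-ps1, which was left out by name, averaged 1776 RPKM at E11.5 and 2181 at E10.5, and Rps15a-ps6 averaged 130 and 191 RPKM, against 113 and 133 RPKM for Rps15a itself. Values of genes with such copies are uncertain.

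**Figure D1:**
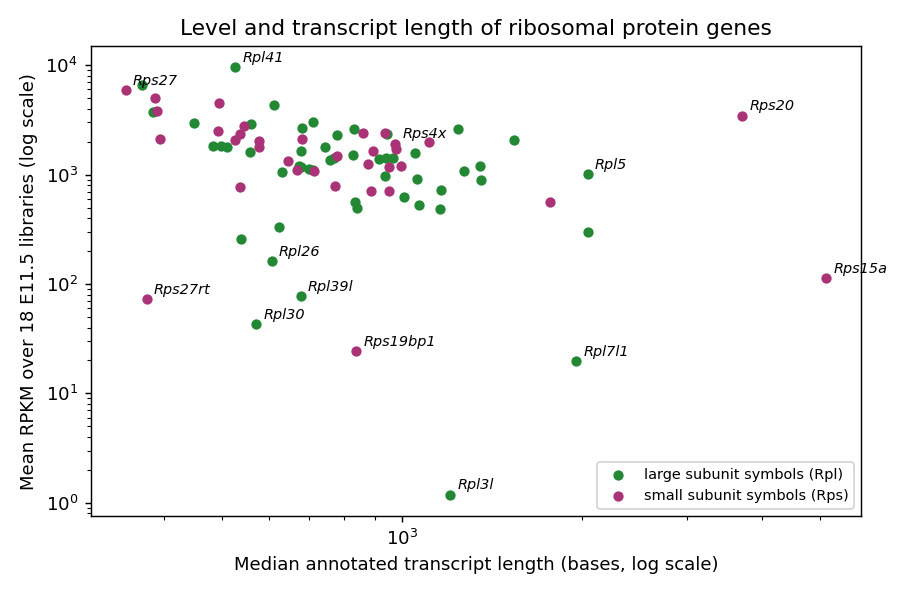
Mean RPKM over the 18 E11.5 libraries (y axis, log scale) against the median annotated length of each gene's protein-coding transcripts in bases (x axis, log scale) for the 85 of 87 ribosomal protein genes with a length, by subunit. Most genes form a band that falls from short to long transcripts, and Rpl26, Rpl39l, Rps27rt, Rpl30, Rps19bp1, Rpl7l1 and Rpl3l lie below it.

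Short messages had the higher levels per length. Across the 85 genes with an annotated transcript length, whose median was 771 bases, Spearman's rho between length and mean RPKM was -0.41 at E11.5, and it was -0.39 across 84 genes at E10.5. Length also went with the spread between libraries: rho between length and the SD of log2(RPKM + 1) was -0.54 at E11.5 and -0.47 at E10.5. These are descriptions across genes, which share libraries and are not independent. The order of the genes was nearly the same at both stages, with a rho of 0.99 between the mean levels of 86 genes. The level was higher at E10.5 for 82 of the 86, but the tables may have been scaled separately, so no difference between stages was tested.

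The ribosomal protein genes varied together from library to library. At E11.5 the median correlation of a gene's log2(RPKM + 1) with the median of the other 86 was 0.85 over 18 libraries, and it was above 0.8 for 57 genes. At E10.5 the median was 0.89 over 7 libraries. Rps28 (0.98) and Rps18 (0.97) followed the others most closely at E11.5. The 8 genes with a correlation below 0.5 at E11.5 were Rpl7l1 (-0.06), Rpl3l (-0.04), Rps19bp1 (-0.02), Rps27rt (0.23), Rpl30 (0.26), the X-linked Rps4x (0.34), Rpl3 (0.38) and Rpl39l (0.49). Libraries share their amplification and scaling across all genes, so these correlations describe the libraries as much as the genes. The median SD between E11.5 libraries on the log2 scale was 0.51 for the 87 genes and 0.97 for all tested genes. The steadiest at E11.5 were Rpl10 (SD 0.23), Rpl4 (0.25) and Rps6 (0.27), and the least steady were Rps27rt (2.93), Rps19bp1 (1.44) and Rpl3l (1.08). Rps19bp1 encodes a binding partner of Rps19 rather than a subunit, and it was kept because the symbol rule takes it in.

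**Figure D2:**
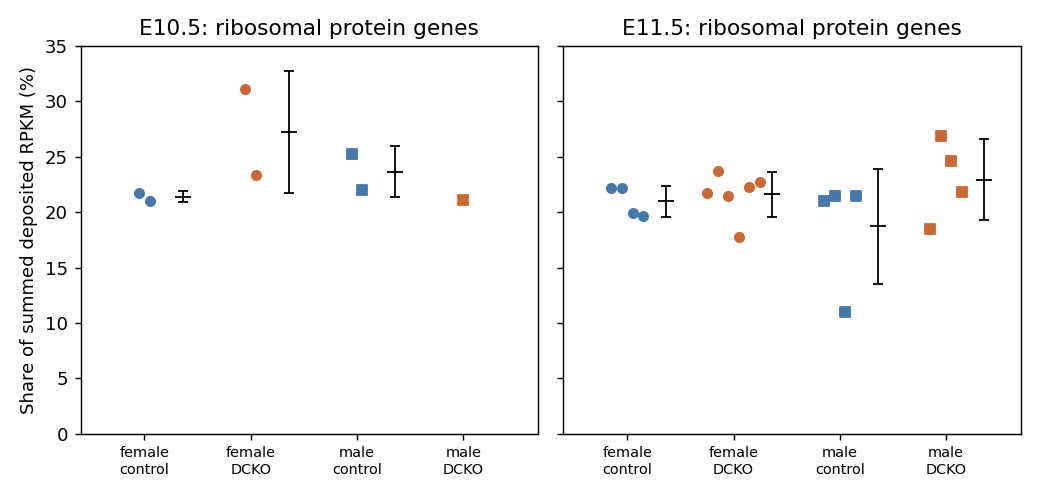
Share of the summed deposited RPKM held by the ribosomal protein genes (y axis, percent) in each library, by sex and genotype, at E10.5 (left) and E11.5 (right). Points are libraries, and bars beside groups of 2 or more give the mean and SD. At E11.5 male control 3 lies lowest at 10.97% and male DCKO 2 highest at 26.9%.

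The share of RPKM held by these genes differed more between single libraries than between genotypes. At E11.5 it was 22.1% ± 2.68 (SD, n = 10) in DCKO and 19.9% ± 3.71 (SD, n = 8) in control libraries. The 4 male controls held 21.0%, 21.5%, 10.97% and 21.5%, so that 1 library lay far below the others. The 4 male DCKO libraries held 18.5%, 26.9%, 24.6% and 21.9%. The female controls ran from 19.6% to 22.2% and the female DCKO libraries from 17.8% to 23.7%, and these ranges overlapped. The 3 lowest shares of all 18 (10.97%, 17.8% and 18.5%) were in the 3 libraries with the highest summed somatic markers, and the part of other cells in the share was not tested. In bulk samples fewer germ cells and less message per cell cannot be told apart. At E10.5 the shares were 21.0% to 25.3% in the 4 controls and 21.1%, 23.3% and 31.1% in the 3 DCKO libraries, and the highest was female DCKO 1. The difference of the means, DCKO minus control, was 2.28 percentage points at E11.5 and 1.01 without male control 3. At E10.5 it was 2.67 points, and -0.30 without female DCKO 1. Large-subunit genes summed to 1.31 ± 0.0655 times (SD, n = 18) the small-subunit genes at E11.5, with 1.31 in DCKO and 1.31 in control libraries.

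At E11.5 none of the 87 ribosomal protein genes passed the threshold for a genotype difference (limma, Benjamini-Hochberg adjusted p under 0.05, two-sided), beside 0.0237% of all tested genes. Without adjustment, 13 genes had p under 0.05 with a higher value in DCKO and none with a lower value, where the background over all tested genes was 1.73% and 3.73%. The fitted difference was above 0 for 83 of the 87 genes, with a median of 0.32 on the log2(RPKM + 1) scale. Over all 12667 tested genes 45.0% were above 0, with a median of -0.06. Many of these genes move together, so 83 genes are not 83 observations. No ribosomal protein gene had every DCKO library above every control library, beside 0.00789% of all genes. Without male control 3 the median was 0.13, and without male control 4 it was 0.43. The count of 13 became 41 without male control 4, 27 without female DCKO 4 and 7 without female control 4. The share of all tested genes at that p was not counted in these refits, so the counts have no background. With every library scaled to the same RPKM sum, the median of all tested genes moved to -0.20 and that of the ribosomal protein genes to 0.14. Quantile normalization gave 0.10. Summed somatic markers ran from 60.3 to 978 RPKM in controls and from 41.5 to 675 in DCKO. Without the 3 libraries with the highest somatic sums the median was 0.24, with 82 of 87 genes above 0. The share of all tested genes above 0 in that refit is not given here.

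The genes with the smallest p at E11.5 were Rpl29 and Rps21. Rpl29, a small basic protein of the large subunit, stood at 1369.6 to 1678 RPKM in 5 of the 10 DCKO libraries, which included every male one. It stood at 725 to 1207 in the other 5, against 507 to 1213 in the controls. The DCKO libraries thus reached higher, and the groups overlapped. Its difference was 0.52 (SE 0.18, limma adjusted p = 0.884). Rps21, a small-subunit protein that works late in 40S maturation, had a median of 2667 RPKM in DCKO libraries (lowest 916, highest 4210.1) and 1489 in controls (lowest 525, highest 2839.6). Its difference was 0.86 (SE 0.30, limma adjusted p = 0.884). Rpl35a, at 2039.9 ± 464 RPKM (SD, n = 10) in DCKO and 1439 ± 497 (SD, n = 8) in control libraries, differed by 0.63 (SE 0.22, limma adjusted p = 0.884). Rpl26, which contacts the region near the peptide exit tunnel, had 137 to 295 RPKM in DCKO and 11.01 to 176 RPKM in control libraries, so the groups overlapped. The difference was 1.03 (SE 0.37, limma adjusted p = 0.902). Rpl41, the most abundant, had 0.58 (SE 0.22, limma adjusted p = 0.902). The 2 smallest p among genes with a lower value in DCKO belonged to Rpl3l (-0.33) and Rpl7l1 (-0.12), with a limma adjusted p of 0.976 and 0.992. Rpl3l passed the filter of 1 RPKM through female control 4, so its lower value in DCKO carries no weight, also within females.

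**Figure D3:**
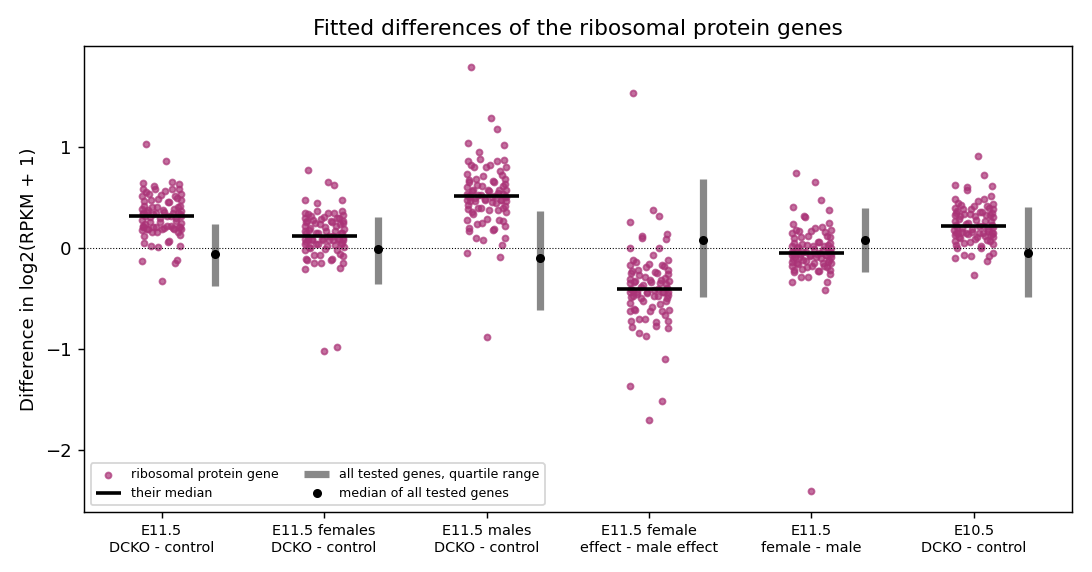
Fitted differences in log2(RPKM + 1) (y axis) of the ribosomal protein genes in 6 comparisons (x axis). Each point is 1 gene, the black line is their median, and the grey bar and black dot give the quartile range and median of all tested genes. The genes lie mostly above 0 in the male E11.5 comparison (median 0.51) and nearer 0 in the female comparison (median 0.12, and 0.00 with the same RPKM sum) and the sex comparison (median -0.05, and 0.09 with the same RPKM sum).

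Length went with the size of these differences. The 43 ribosomal protein genes with transcripts up to the median length had a median difference of 0.41 at E11.5, and the 42 longer ones 0.23. Spearman's rho between length and the E11.5 genotype difference was -0.50 across 85 genes. Other genes, split at the same median length, showed the same order at a lower level. The 459 other short genes had a median of 0.09 and the 10999 other long genes -0.07. Lengths within these sets were not matched to those of the ribosomal protein genes, so the levels are not compared at equal length. The part of transcript length in the ribosomal differences was not tested. The mitochondrial ribosomal proteins, 77 genes of a separate ribosome encoded in the nucleus, had a median of 0.06 with 42 of 77 above 0.

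Within males none of the 87 genes passed the threshold (background 0.0316%). Without adjustment 18 had p under 0.05 with a higher value in DCKO, where the background was 2.74%, and none with a lower value, where it was 4.21%. The median difference was 0.51 with 84 of 87 above 0. In 5 genes every male DCKO library stood above every male control: Rpl17, Rpl24, Rpl29, Rpl32 and Rpl35a, of which Rpl17, Rpl24 and Rpl32 were named after their values were seen. The background for that pattern was 0.845%. Rpl29 stood at 1487, 1641, 1487 and 1369.6 RPKM in the male DCKO libraries and at 1085, 785, 507 and 824 in the male controls. Rpl35a stood at 2247, 2646, 2774 and 2202 RPKM in male DCKO and at 1235, 1171, 465.8 and 2058 in male control libraries. The groups were apart in both genes, with male control 3 the lowest. The differences were 0.95 (SE 0.26, limma adjusted p = 0.611) for Rpl29 and 1.18 (SE 0.32, limma adjusted p = 0.611) for Rpl35a. The median of the 87 was 0.17 without male control 3 and was 0.75 without male control 4. The count of 18 became 3 without male control 3, 54 without male control 4 and 8 without male DCKO 2. Here too the share of all tested genes was not counted in the refits.

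Within females none of the 87 passed either (background 0.00789%), and none had an unadjusted p under 0.05 in either direction, where the background was 0.553% for higher and 1.62% for lower values in DCKO. The median was 0.12 with 69 of 87 above 0, and 0.00 with every library scaled to the same RPKM sum. The smallest p belonged to Rpl30 (0.77, SE 0.40, limma adjusted p = 1) and Rpl22l1 (0.63, SE 0.36, limma adjusted p = 1) above 0, and to Rpl39l (-0.98, SE 0.59) and Rpl3l (-1.02, SE 0.70) below 0. The difference between the female and male effects was itself tested. None of the 87 genes passed (background 0%), and 1 gene was at an unadjusted p under 0.05 with a higher female effect (background 1.78%) and 2 with a lower one (background 1.80%). The 1 was Rpl7l1 (1.53, SE 0.63, limma adjusted p = 0.995), and the 2 were Rpl35a (-1.10, SE 0.44) and Rpl29 (-0.87, SE 0.36). The median difference of effects was -0.41. It was -0.04 without male control 3, -0.64 without male control 4, -0.04 without the 3 libraries with the highest somatic sums, and 0.0678 without male control 3 and female DCKO 4.

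At E10.5 none of the 86 genes passed the threshold for genotype (background 0%). Rpl26 was the 1 gene with an unadjusted p under 0.05 and a higher value in DCKO (background 1.49%), and no gene had one with a lower value (background 1.60%). Rpl26 stood at 127, 77.2, 139 and 163 RPKM in the controls and at 146, 431 and 259.7 in the DCKO libraries. The groups overlapped through the male DCKO library at 146 RPKM, and the difference was 0.91 (SE 0.36, limma adjusted p = 0.991). Rpl29 followed with 0.72 (SE 0.42, limma adjusted p = 0.991). In 1 gene, Rpl10, every DCKO library stood above every control (background 2.28%), at 1646, 2288 and 1713 RPKM against 1289 to 1615. The median of the 86 was 0.22 with 78 above 0. Without female DCKO 1, in which Rpl41 reached 28676 RPKM against 8274 to 16028 in the other 6 libraries, it was -0.09 with 24 above 0. It was -0.03 after quantile normalization.

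Of the subunit genes, 4 lie on the X chromosome: Rps4x, Rpl36a, Rpl39 and Rpl10. Rps4x has a Y-linked partner in primates but not in mice. Female primordial germ cells reactivate their silenced X chromosome around these stages. In the comparison of E11.5 females with males, averaged over genotypes, Rps4x had the smallest p of all 87 genes. It stood at 1546 to 3007 RPKM in the 10 female libraries (median 2417) and at 1033 to 2059.6 in the 8 male libraries (median 1478). The groups overlapped, with 7 of 10 females above the highest male and 5 of 8 males below the lowest female. The difference was 0.66 (SE 0.15, limma adjusted p = 0.281), so Rps4x did not pass. Its adjusted p ran from 0.0395 to 0.803 over 32 alternatives, and it passed in 2 of them, the scaling to the same RPKM sum and the quantile normalization. Taken alone, its values gave an exact permutation p of 0.000571 over 43758 arrangements of the sex labels (two-sided, 1 of 4 genes tested this way). The labels were moved across both genotypes, so unlike the fit these permutation tests do not balance genotype. The share of the summed ribosomal protein RPKM that was Rps4x was 1.61% ± 0.13 (SD, n = 10) in females and 1.02% ± 0.40 (SD, n = 8) in males. Male control 3 had 1.82%, the highest of all 18, while the other 7 males had 0.507% to 1.25% and the females 1.36% to 1.81%.

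**Figure D4:**
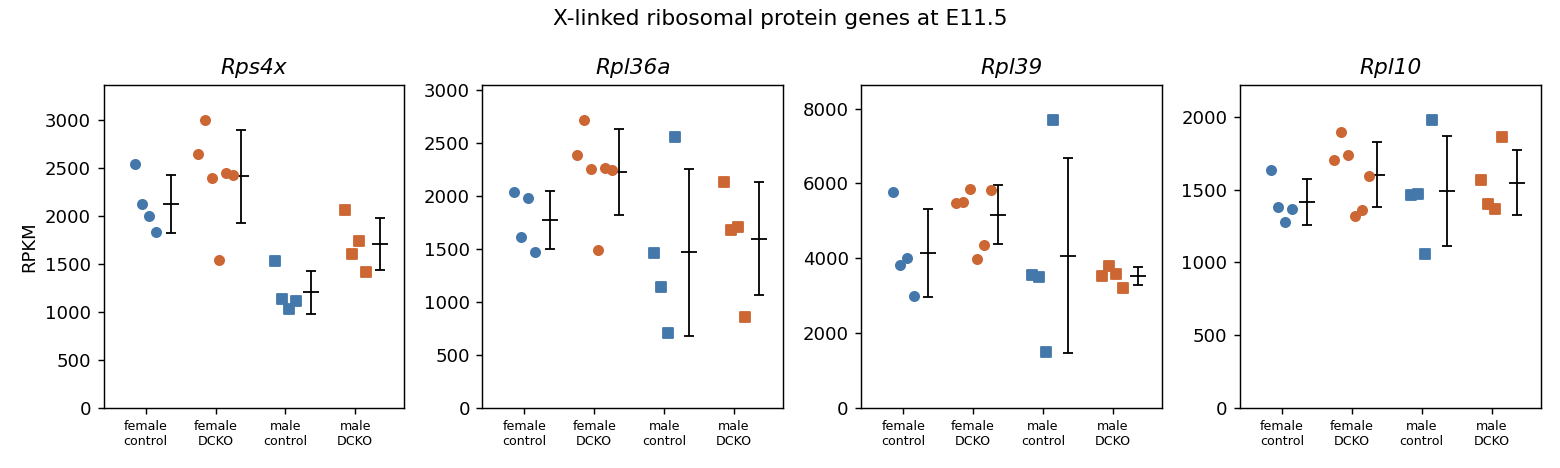
RPKM (y axes, each from 0) of the 4 X-linked ribosomal protein genes in the 18 E11.5 libraries, by sex and genotype. Points are libraries, and bars give the mean and SD of each group. Rps4x lies higher in most female libraries, while the 4 groups overlap in Rpl10.

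Rpl36a had a female minus male difference of 0.48 (SE 0.23, limma adjusted p = 0.864, exact permutation p = 0.0381 alone). It was 2229 ± 403 RPKM (SD, n = 6) in female DCKO and 1777 ± 274 (SD, n = 4) in female control libraries, against 1596 ± 534 (SD, n = 4) in male DCKO and 1467 ± 791 (SD, n = 4) in male control libraries. Rpl39, a very short protein at the exit tunnel, had 0.38 (SE 0.24, exact permutation p = 0.0904). Rpl10, which completes the large subunit at the peptidyl transferase centre, had a difference of 0.00 (SE 0.15, exact permutation p = 0.883). The 73 autosomal genes without the paralogues and retrocopies had a median of -0.06, and the median of all tested genes was 0.07. No ribosomal protein gene passed the threshold for sex (background 0.0395%). Rps4x was the 1 with an unadjusted p under 0.05 and a higher female value (background 4.31%), and none was lower (background 1.39%). The germ cell markers lay in the same direction as Rps4x, with 14 of 14 above 0 and a median of 0.57, and their part in it was not tested. Without the 3 libraries with the highest somatic sums the Rps4x difference was 0.73 (limma adjusted p = 0.0522). Eif2s3x, an X-linked translation factor whose gene is known to be active on both X chromosomes in somatic cells, had 0.90 (limma adjusted p = 0.150).

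At E10.5 Rps4x stood at 2658, 2742, 2546 and 2693 RPKM in the 4 female libraries and at 2192, 2417 and 1913 in the 3 males. Rpl36a stood at 2110.4, 1899.8, 1920.3 and 2919 RPKM in females and at 1751, 1521 and 1571 in males. In both genes every female library was above every male library. This held for 5 of the 86 genes, the other 3 being Rpl5, Rps6 and Rpsa, and for 3.39% of all tested genes. As a share of the summed ribosomal protein RPKM the sexes overlapped in both genes. Rps4x had 1.59%, 1.91%, 0.729% and 1.55% in the females and 0.973%, 1.64% and 1.29% in the males, and Rpl36a was lowest of all 7 libraries in female DCKO 1, at 0.550%. The sex term of the E10.5 fit was not used as a comparison, so no p is given. Rps4l, a copy of Rps4x, lay the other way at E10.5, at 173 to 275 RPKM in females and 305 to 550 in males. It was the 1 gene of the 86 with every female library below every male library, beside 3.96% of all tested genes.

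The stalk proteins Rplp0, Rplp1 and Rplp2 form the flexible arm of the large subunit that recruits the elongation factors. At E11.5 Rplp2 averaged 2942 ± 1171 RPKM (SD, n = 18), Rplp1 1831 ± 732 and Rplp0 898 ± 264. Per length the 2 small stalk proteins were thus above their anchor Rplp0, of which each stalk holds a single copy. Their E11.5 genotype differences were 0.12 (SE 0.22) for Rplp0, 0.53 (SE 0.32) for Rplp1 and 0.32 (SE 0.29) for Rplp2, and none passed (limma adjusted p = 0.991, 0.912 and 0.946). Rplp2 ran from 835 RPKM in male control 3 to 6336 in male control 4, a wider range than between the genotypes.

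Rpl5 and Rpl11 carry the 5S RNA into the large subunit. At E11.5 Rpl11 averaged 2607 ± 627 RPKM (SD, n = 18) and Rpl5 1010.0 ± 209.5 (SD, n = 18). Their genotype differences were 0.27 (SE 0.20) and 0.02 (SE 0.18), and neither passed (limma adjusted p = 0.946 and 0.995). In males Rpl5 was 1 of 3 genes with a difference below 0, at -0.05, which was above 0 in 6 alternatives, 3 of them with 1 library left out. Rps27a, which is made as a fusion with ubiquitin, averaged 1074 ± 372 RPKM at E11.5, with a genotype difference of 0.21 (SE 0.28, limma adjusted p = 0.972). Rps6, the subunit that S6 kinase phosphorylates, averaged 1259 ± 218 RPKM, with 0.06 (SE 0.16, limma adjusted p = 0.992).

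Of the paralogues, Rpl22l1 and Rpl36al stood nearest their main copies at both stages. Rpl22l1 had a mean of 86.7% of the RPKM of Rpl22 over the 18 E11.5 libraries (lowest 53.1%, highest 177%) and 78.2% ± 11.3 (SD, n = 7) at E10.5. Males had 105% ± 38.3 (SD, n = 8) and females 72.1% ± 25.2 (SD, n = 10) at E11.5, with overlapping ranges. The genotype difference of Rpl22l1 was 0.58 (SE 0.27, limma adjusted p = 0.902) and its sex difference -0.42 (SE 0.27, limma adjusted p = 0.888). Rpl36al, the autosomal copy of the X-linked Rpl36a, had 84.0% ± 53.2 (SD, n = 18) of its RPKM at E11.5 and 83.0% ± 34.8 (SD, n = 7) at E10.5. The E11.5 mean was 60.9% ± 11.9 (SD, n = 10) in females and 113% ± 70.6 (SD, n = 8) in males. The highest, 262%, was in male DCKO 4, where Rpl36a had its lowest DCKO value of 859.6 RPKM. Rps27l, known as a target of p53, had 14.4% ± 5.67 of Rps27, and Rps4l had 10.2% ± 4.92 of Rps4x (both SD, n = 18). The genotype difference of Rps27l was 0.47 (SE 0.35, limma adjusted p = 0.946).

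Rpl39l, a copy used in the male germ line after birth, had 1.83% ± 0.94 of Rpl39 (SD, n = 18), with 226 RPKM in female control 1 and 5.13 in male control 3. Rpl7l1, a factor of large-subunit assembly, had 2.85% ± 1.64 of Rpl7 (SD, n = 18). Rpl3l, known from heart and skeletal muscle, was listed at 0 in 10 of 18 libraries at E11.5 and reached 15.4 RPKM in female control 4 and 4.62 in male DCKO 2. At E10.5 it was listed at 0 in 6 of 7 libraries. Its mean at E11.5 thus rests on those 2 libraries.

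Rps27rt, a retrotransposed copy of Rps27, was the least steady of all 87 genes. At E11.5 it stood at 507 RPKM in male control 2, 334 in male DCKO 2, 252 in male DCKO 4, 111 in female DCKO 2 and 50.8 in male control 4, and between 0.28 and 23.6 in the other 13 libraries. High and low libraries occurred in both genotypes and sexes. At E10.5 it ran from 0.70 to 14.3 RPKM. As a share of Rps27 it ran from 0.0051% to 16.0% at E11.5, while Rps27 itself ran from 1752 to 14253 RPKM. Its female minus male difference of -2.40 (SE 1.23, limma adjusted p = 0.873) did not pass. Rpl37rt, the retrotransposed copy of Rpl37 (Rpl37 was added after its values were seen), was by contrast steady at 5.35% ± 0.89 of Rpl37 (SD, n = 18), with a range of 4.38% to 8.13%. A copy with the same sequence as its parent over a read cannot be told apart from it, so both ratios are uncertain.

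**Figure D5:**
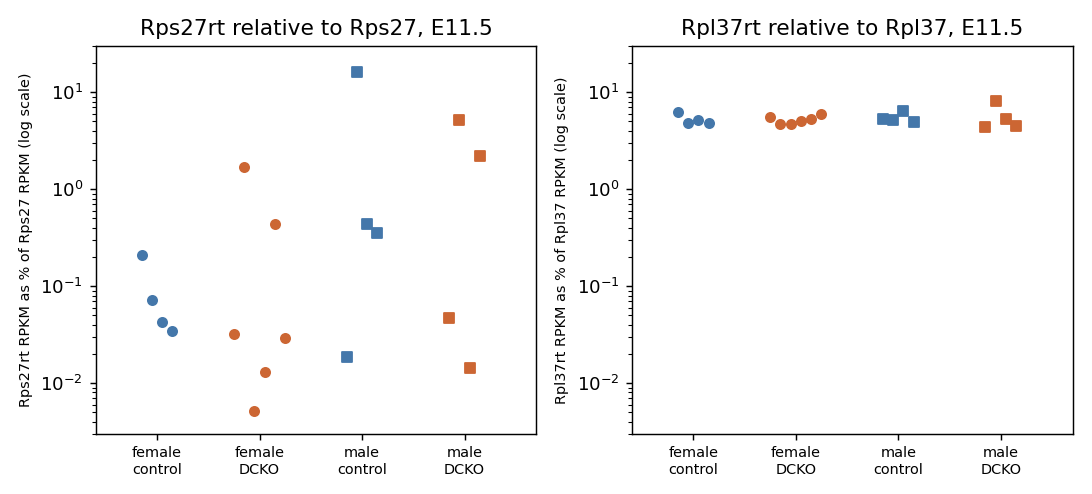
RPKM of the retrotransposed copies Rps27rt and Rpl37rt as a percentage of the RPKM of Rps27 and Rpl37 (y axes, log scale) in the 18 E11.5 libraries, by sex and genotype. Points are libraries. Rps27rt spreads from 0.0051% to 16.0% while Rpl37rt stays between 4.38% and 8.13%.

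The start regions of Rps27 and Rps27rt are shown because the copy lies on another chromosome with other sequence upstream. Each line runs from 50 bases before to 30 bases after the annotated start, 5′ to 3′ along the gene (RefSeq, GRCm38.p6), and capitals mark a run that both genes share, as far as the window holds it. The run is 38 bases long and begins at the first transcribed base of the copy and the second of Rps27. Upstream of it the lines differ. Rps27 lies on the minus strand at chr3:90213619-90213698 and Rps27rt on the minus strand at chr9:114982710-114982789.
Rps27: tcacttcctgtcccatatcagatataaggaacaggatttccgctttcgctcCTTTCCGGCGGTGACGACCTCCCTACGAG
Rps27rt: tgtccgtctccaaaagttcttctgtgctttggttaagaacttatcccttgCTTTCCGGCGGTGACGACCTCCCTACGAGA

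Of the 87 genes 66 had a start region in the RefSeq table, with 78 regions between them. For description, 3 short motifs were searched on both strands in the whole 300 bases, from 250 before to 50 after the start. CTTTC, 5 pyrimidines of the kind that open TOP messages, was in 80.8% of the 78 regions and 57.3% of all 32851 regions. Within 50 bases before to 30 after the start it was in 43.6% and 19.2%. CCGGAAG, a core bound by ETS factors such as GABP, was in 34.6% of the 78 regions and 8.86% of all. AAGATGGC, a core bound by YY1, was in 10.3% and 2.75%. CCGGAAG and AAGATGGC can overlap by the letters AAG. A match describes letters and not binding. CTTTC was counted anywhere in the window and on either strand, so its share does not count TOP starts. The comparison is with all regions, whatever the level of their genes here. Regions of 3 genes are shown: Rpl35a and Rps21, named above for their E11.5 differences, and Rpl41, the most abundant. Capitals mark CTTTC or CCGGAAG on either strand. Rpl35a lies at chr16:33056432-33056511 (plus strand, 1 of 3 annotated starts), Rps21 at chr2:180257329-180257408 (plus strand, 1 of 2 starts) and Rpl41 at chr10:128549139-128549218 (minus strand).
Rpl35a: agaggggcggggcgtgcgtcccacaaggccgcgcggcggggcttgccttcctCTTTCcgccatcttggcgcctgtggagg
Rps21: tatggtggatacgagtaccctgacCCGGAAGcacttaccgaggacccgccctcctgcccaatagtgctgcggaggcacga
Rpl41: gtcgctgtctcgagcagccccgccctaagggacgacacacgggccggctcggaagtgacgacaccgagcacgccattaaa
Rpl35a holds CTTTC just after its start. Shortly after that it also holds AAGATGGC on the other strand, which is left in small letters. Rps21 holds CCGGAAG upstream, while the window of Rpl41 holds none of the 3 motifs.

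Genes of the pathway outside the symbol rule were on both sides of 0 in the E11.5 genotype comparison. Fau and Gnb2l1, subunits that go by other symbols, had differences of 0.30 (SE 0.29) and 0.10 (SE 0.21), and neither passed. Of 16 elongation factors and other TOP genes 10 were above 0 with a median of 0.03, and none passed. The smallest p belonged to Btf3 (0.40, SE 0.21) and Eif2s3x (-0.37, SE 0.19), both with a limma adjusted p of 0.902. A list of 19 regulators of ribosomal protein genes also took in Mdm2 and Trp53 of the p53 response. Of these 19 genes 8 were above 0 with a median of -0.08, led by Tsc1 (0.63, SE 0.31) and Mtor (-0.64, SE 0.35), and none passed. Of 43 ribosome assembly factors 11 were above 0 with a median of -0.11. The 1 that passed was Npm1, an abundant nucleolar chaperone, listed at 0 in all 10 DCKO libraries and at 2106 to 6115 RPKM in the 8 controls. At E10.5 Npm1 stood at 3308 to 5390 RPKM in the 3 DCKO libraries. A value listed at 0 can be a failed estimate, so no fold is given. Ncl, another nucleolar protein, came next with -0.33 (SE 0.17, limma adjusted p = 0.902).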

How the data were processed

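The authors deposited 1 table of RPKM per stage with 1 column per library. The submitters' processing notes name TopHat2 version 2.1.0, Cufflinks version 2.2.1, Cuffdiff and the build mm9, without roles. No source used here gives the gene models or filters. Short transcripts, amplification and reads shared with pseudogenes can shift RPKM of these genes. The members and gene lists were chosen with earlier results of these data known. The 12 E13.5 samples were not analysed here.

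From the deposited RPKM, limma version 3.58.1 (R version 4.3.3, intensity trend) was fitted to log2(RPKM + 1) for all genes averaging 1 RPKM or more, and p-values were adjusted over all of them. At E11.5 the fit had 4 group means. At E10.5 it had additive genotype and sex terms. A fold on this scale understates the change of low genes. The most similar libraries correlated at 0.878, and none were identical. Chromosomes and transcript lengths came from GENCODE vM21, which matched 85 of 87 genes, and start regions from RefSeq. Single X-linked genes were tested by exact permutation in Python version 3.11.15. The fit was tested on simulated data in which genes varied independently and the set changes were large. That test does not cover small differences shared by many genes. Named genes were those past the threshold, the 2 smallest p in each direction per comparison, the 5 highest and lowest levels, the 3 largest and smallest SDs, genes listed at 0, and the role lists (stalk, 5S, ubiquitin fusion, X-linked, paralogues, Rps6 and Rps19bp1), and of the pathway lists up to 2 genes each. Alternatives changed the pseudocount, the filter on low values, the scaling, library weights, the intensity trend, number blocks and the libraries included. Those that kept only core, shorter or longer genes, and those that left out the 2 libraries with the smallest shares or the 3 with the highest somatic sums, were chosen after seeing the data. Some genes that this rule takes in are not reported here.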

Additional observations from a re-analysis of the deposited data

Results flagged for a closer look

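Gap tests within the 4 groups at E11.5, over 23 quantities and 92 groups, found 9 values, in 6 libraries, that lay apart from the rest of their group, where chance gives about 1 in 20 groups. Male control 3 held 10.97% of its RPKM in ribosomal protein genes, against 21.0% to 21.5% in the other 3 male controls. In the same library Rps27l stood at 109.9 RPKM, against 781 to 1050.1 in the others. Female DCKO 4 was low in 3 genes: Rplp2 at 1297 RPKM against 2526 to 3638 in the other 5 libraries, Rps4x at 1546 against 2401 to 3007, and Rpl36a at 1493 against 2249 to 2723. In male DCKO 1 Rpl5 stood at 572 RPKM, against 968 to 1037 in the other 3. In female control 1 Rpl39l stood at 226 RPKM, against 89.4 to 99.6. In male DCKO 4 Rps4l stood at 261 RPKM, against 179.8 to 190.1. In male DCKO 2 Rps21 stood at 4210.1 RPKM, against 2639.6 to 2832.5. Male control 3, male DCKO 1 and female DCKO 4 had the 3 highest summed somatic markers at E11.5, and the part of those cells in these values was not tested.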

How the results depend on the processing

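No ribosomal protein gene passed the threshold under any alternative in the E11.5 genotype comparisons or at E10.5. For sex 1 did, Rps4x, with the same RPKM sum and with quantile normalization. The E11.5 count of 13 genes at unadjusted p under 0.05 became 8 with the same RPKM sum, 22 with median-of-ratios scaling, 7 with quantile normalization, 33 with library weights, 5 with the replicate block, 8 with the title number block, 6 without the intensity trend, 2 among genes above the median length, 20 without the 3 libraries with the highest somatic sums, and 7 to 41 with 1 library left out. The male count of 18 became 11, 10, 11, 8 and 7 with the same RPKM sum, quantile normalization, replicate block, title number block and no trend, 4 in males alone, 5 among longer genes, 6 without male control 3 and female DCKO 4, 10 without the 3 libraries, and 3 to 54 with 1 left out. For the refits behind these counts, the share of all tested genes at unadjusted p under 0.05 was not counted. A change in a count can therefore be shared by all genes. Medians moved by less than 1 SD of the libraries' medians, some with a change of sign given above. The exception was the sex interaction, at 0.0678 without male control 3 and female DCKO 4. The SD of the libraries' medians was 0.38 at E11.5 and 0.42 at E10.5. It exceeded the main medians for E11.5 genotype, females, sex and E10.5 genotype. For these the rule could not flag the loss of the whole difference, so it does not show that they are stable. Rpl7l1 turned to 0.10 with library weights, and Rpl5 in males to 0.0106, 0.0226 and 0.0356 (median-of-ratios, weights, title block). With 1 library left out, Rpl7l1 ran from -0.27 to 0.0095, Rpl3l from -0.64 to 0.17, Rpl5 in males from -0.30 to 0.15, Rpl39 in the interaction from -0.0671 to 0.72, and Rpl39l at E10.5 from -0.61 to 0.22. Whether libraries of the same number belong together was not settled, and what the title numbers mark is not stated. In the check behind the replicate block, 5 of 24 E11.5 pairs of replicate numbers and 7 of 16 of title numbers correlated above 0.1. None did at E10.5. The highest correlation at E11.5 was 0.249 for replicate numbers and 0.49 for title numbers. The replicate block left the E11.5 median at 0.31. The main fit had no block, so its p-values do not account for any such grouping. The causes were not tested. Depth is unknown, so no limit of detection is given.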
